A study of Ovis aries with 49 samples.

Results

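TCF21 is a transcription factor of the basic helix-loop-helix family, read here by its 1 probe set in the table, 1 of 9780 genes with a probe set of a single symbol. It was found by its gene symbol. It had been chosen by its high signal in epicardial and visceral depots of these same arrays, so its levels and differences between depots are a description with no test. RNA from epicardial, omental, perirenal, sternal and subcutaneous fat of lambs (Ovis aries) was hybridised to 49 human expression arrays, 24 at 7 days of age and 25 at 28 days. Each of the 10 groups held 5 arrays, except subcutaneous fat at 7 days with 4. The lambs were twins of Bluefaced Leicester cross Swaledale ewes, with sampling of one twin at each age. Ewes ate either a standard lactation diet or that diet with added canola oil, and the labels used here do not give the diet of an array. Arrays are named by letters for the replicate numbers in their titles, from A to G in the younger and from H to O in the older lambs. Since the labels do not say that these numbers are animals, the p-values reflect sample spread that may be partly technical. No number occurs at both ages, so twins could not be paired and all tests of age treat the ages as independent.

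TCF21 marks the mesenchyme that lies around developing inner organs and the epicardium, the outer cell layer of the heart. In the embryonic heart it is needed for epicardial cells to become fibroblasts, and it represses the smooth muscle programme. In fat it is known as a marker of visceral rather than subcutaneous progenitors. It binds DNA as a dimer with E proteins, a class that holds TCF3, TCF4 and TCF12, while ID proteins take up E proteins and keep them from DNA.

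All levels are log2 values normalised by the authors with GCRMA, and the lowest value in the table is 2.49. At this scale 82.7% of all values lie below 4, so levels under 4 are dim. No array repeated another, since the highest correlation of a pair over all probe sets was 0.990. Heart and skeletal muscle genes were present in a subset of libraries, and their values stand beside the results they touch. In bulk tissue, fewer cells of a type and less RNA per cell cannot be told apart. Less tissue was taken for RNA at 7 days than at 28 days, so the amount of tissue and age cannot be told apart either.

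In epicardial fat at 7 days, the TCF21 level was 6.79 in A, 7.93 in C, 6.21 in D, 6.39 in E and 6.13 in G. At 28 days it was 8.28 in I, 7.91 in J, 8.07 in L, 7.64 in N and 7.71 in O. Array C stood above the other 7-day arrays and inside the range of the 28-day arrays, while the remaining 7-day arrays all lay below that range. The group mean was 6.69 ± 0.74 (SD, n = 5) at 7 days and 7.92 ± 0.26 (SD, n = 5) at 28 days. The 28-day array I held the highest TCF21 level of all 49 arrays.

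Omental fat, the apron of fat in the abdominal cavity, came next. At 7 days its TCF21 level was 5.91 in A, 5.78 in C, 5.17 in D, 5.17 in E and 6.37 in G. At 28 days it was 6.26 in I, 6.49 in J, 6.43 in M, 6.49 in N and 6.64 in O. The 28-day arrays lay close together, and 1 array of 7 days, G, reached into their range. Means were 5.68 ± 0.52 (SD, n = 5) at 7 days and 6.46 ± 0.14 (SD, n = 5) at 28 days.

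Perirenal fat surrounds the kidney and is the main brown fat of the newborn lamb. Its TCF21 level at 7 days was 3.70 in A, 4.96 in B, 5.41 in C, 3.59 in D and 4.59 in G. At 28 days it was 5.79 in I, 5.52 in J, 5.23 in K, 5.72 in M and 6.36 in N. The 7-day arrays spread more widely than those of any other group, and only C reached the 28-day range. Means were 4.45 ± 0.79 (SD, n = 5) and 5.72 ± 0.42 (SD, n = 5).

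In the 2 depots outside the body cavities, TCF21 stayed dim. Sternal fat had 3.98 in B, 3.10 in D, 3.10 in E, 2.49 in F and 3.12 in G at 7 days, and 2.91 in I, 2.49 in J, 3.03 in M, 3.10 in N and 2.80 in O at 28 days. Subcutaneous fat had 2.98 in A, 3.83 in E, 3.10 in F and 3.03 in G at 7 days, and 3.26 in H, 3.06 in I, 3.77 in J, 3.85 in M and 3.42 in N at 28 days. All 19 arrays of these depots lay below 4, and 1 sternal array of each age sat at the lowest value of the table. At this signal, low and absent expression cannot be told apart. The same probe set reached 8.28 in epicardial fat, and how well sheep RNA binds the human probes was not tested. The SD over arrays was smaller at 28 than at 7 days in all 5 depots.

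**Figure D1:**
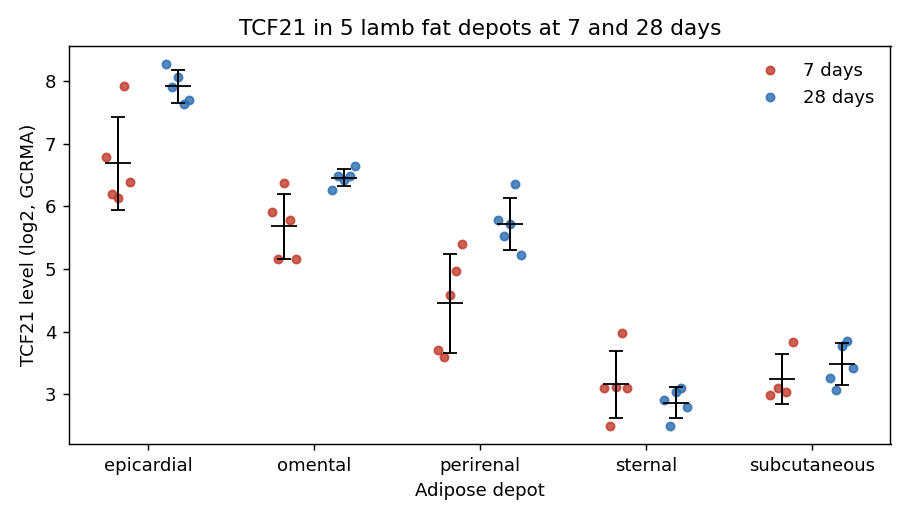
TCF21 level (log2, GCRMA) on the vertical axis for each array of the 5 depots, with 7-day arrays in red and 28-day arrays in blue. Black marks are group means with SD (n = 5, and 4 for subcutaneous fat at 7 days). Epicardial arrays run from 6.13 to 8.28, and every sternal and subcutaneous array lies below 4.

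The depots fell in the order epicardial, omental, perirenal, subcutaneous and sternal by mean TCF21 level at both ages. At 7 days each step in that order had overlapping ranges. The epicardial mean was 1.01 log2 units above the omental mean, the omental mean 1.23 above the perirenal mean, and the perirenal mean 1.21 above the subcutaneous mean. Subcutaneous and sternal fat differed by only 0.08 at that age, well inside their SDs of 0.40 and 0.53. At 28 days the lowest epicardial array, at 7.64, lay 1 log2 unit above the highest array of any other depot, at 6.64. The step from perirenal to subcutaneous fat was 2.25 log2 units with no overlap, while omental and perirenal fat overlapped with a mean difference of 0.74. Subcutaneous and sternal fat also overlapped then, with a mean difference of 0.61.

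As ratios of the linear signal, TCF21 in epicardial fat was 2.01 times that in omental fat at 7 days and 2.75 times at 28 days. Against perirenal fat the ratios were 4.72 and 4.58. Against sternal fat they were 11.6 and 33.2, and these rest on sternal levels close to the lowest value of the table. Depot accounted for 87.2% of the sum of squares of TCF21 over the 49 arrays, age for 3.58%, their interaction for 3.04% and the spread within groups for 6.19%.

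The difference between epicardial fat and the mean of the other depots was 2.56 log2 units at 7 days and 3.29 at 28 days, rank 27 and rank 14 of 10273 probe sets. Of all probe sets tested in that contrast, 4.07% were called at 7 days (3.35% higher and 0.72% lower) and 3.24% at 28 days (2.74% higher and 0.506% lower), at an adjusted p of at most 0.05. Of 2191 probe sets with a group mean of at least 4, 33 (1.51%) had every epicardial array above every other array at 7 days, and 11 (0.502%) did at 28 days. TCF21 was among the latter and not among the former. It was also the only probe set of the 2191 (0.0456%) with epicardial above omental, omental above perirenal, and perirenal above both sternal and subcutaneous means at both ages. These counts describe the choice of the gene and carry no test.

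Epicardial fat lies directly on heart muscle, and the heart muscle signal of each epicardial array was read from TNNI3, the cardiac form of troponin I. At 7 days TNNI3 was 8.51 in A, 9.36 in C, 11.29 in D, 10.32 in E and 11.75 in G. At 28 days it was 2.94 in I, 10.66 in J, 10.39 in L, 7.88 in N and 11.29 in O. In the other depots TNNI3 lay between 2.49 and 3.15 on all arrays, so array I stood with the other depots and apart from the rest of the epicardial arrays.

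The whole cardiac muscle list of 25 genes had 15 measured members. Their summed level ran from 86.7 to 106.7 over the 7-day epicardial arrays and from 43.3 to 105.5 over the 28-day ones. In omental and perirenal fat it ran from 41.5 to 44.1 at both ages. In 28-day array I, 1 of the 15 members reached 4, against 9 or 10 in every other epicardial array. The same array had HOXC6, a gene of the trunk and limb body plan, at 2.49, as low as in the other epicardial arrays. HOXC6 lay between 4.75 and 7.10 in the other depots. Some cardiac list genes are also made by skeletal muscle, and the summed level reached 89.3 in subcutaneous fat at 7 days and 81.1 in sternal fat at 28 days.

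TCF21 was highest in the array with the least heart muscle signal, 8.28 at a TNNI3 level of 2.94. At 7 days, too, the arrays with the lowest TNNI3, A and C, had the highest TCF21 levels. At 28 days, N with the second lowest TNNI3 level had the lowest TCF21 level, so the values there did not run one way. The TNNI3 change with age in epicardial fat was -1.62 ± 0.72 (SE, n = 5 and 5, limma adjusted p = 0.231). In an alternative chosen after seeing the data, arrays I and N were left out, and only J, L and O remained at 28 days. The TCF21 change with age in that depot was then 1.20 (limma adjusted p = 0.0416), against 1.23 with them. The part of heart muscle in this change was not tested.

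**Figure D2:**
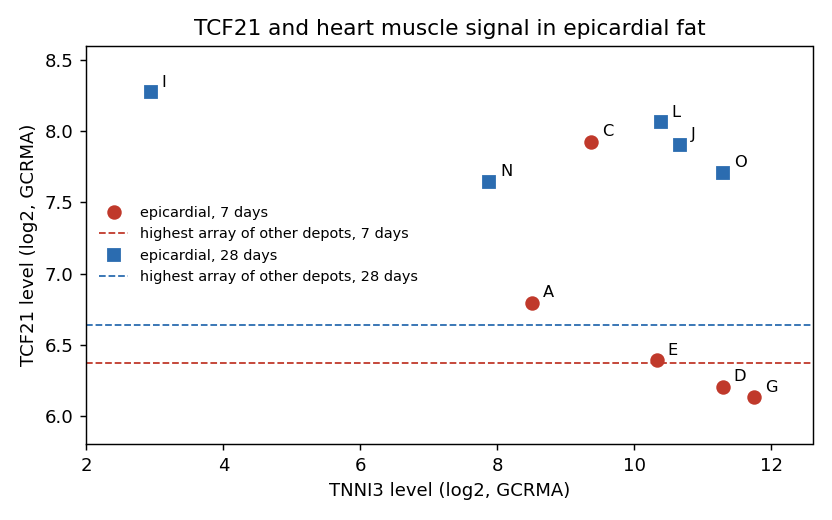
TCF21 level against TNNI3 level (both log2, GCRMA) in the 10 epicardial arrays, with letters naming the arrays, red circles for 7 days and blue squares for 28 days. Dashed lines give the highest TCF21 level of any other depot at each age. All 28-day epicardial arrays lie above the blue line at 6.64, with array I at a TNNI3 level of 2.94.

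The gene was chosen by its depot levels and not by its change with age. Both come from the same arrays, so the p-values of the change are not wholly independent of that choice. The change was tested with limma, in a single model of all 49 arrays adjusted over 10273 probe sets. TCF21 rose from 7 to 28 days in epicardial fat by 1.23 ± 0.29 log2 units (SE, n = 5 and 5), with an interval of 0.64 to 1.83 at 95% confidence and an adjusted p of 0.00644. In this depot 5.84% of probe sets were called, 4.21% higher and 1.63% lower at 28 days. It rose in perirenal fat by 1.27 ± 0.29 (SE, n = 5 and 5; interval 0.68 to 1.87; adjusted p = 0.00273), where 9.32% were called, 6.23% higher and 3.09% lower. Both rises correspond to a linear signal over 2 times as high, 2.35 times in epicardial and 2.42 times in perirenal fat. A rise was called in both depots for 208 probe sets (2.02%). In a fit of only the groups compared, the adjusted p was 0.113 for epicardial and 0.0799 for perirenal fat.

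In omental fat the TCF21 difference was 0.78 ± 0.29 (SE, n = 5 and 5; interval 0.19 to 1.38) and missed the threshold at an adjusted p of 0.0666, while 14.6% of probe sets were called there, 13.5% higher and 1.03% lower. Without the 7-day omental array G, the one inside the 28-day range, that adjusted p was 0.0315. Sternal fat gave -0.29 ± 0.29 (SE, n = 5 and 5; interval -0.89 to 0.30; adjusted p = 0.766), with 6.37% of probe sets called, 2.47% higher and 3.89% lower. Subcutaneous fat gave 0.24 ± 0.31 (SE, n = 4 and 5; interval -0.39 to 0.87; adjusted p = 0.770), with 9.25% called, 7.68% higher and 1.57% lower. Both intervals leave room for a change in either direction.

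Skeletal muscle genes moved with age in these same depots. Of 17 listed, 13 were measured. In sternal fat 2 were called higher and none lower, with a median change of 1.38. In subcutaneous fat 7 were called lower and none higher, with a median of -1.75. Of all probe sets 2.47% were called higher in sternal and 1.57% lower in subcutaneous fat. The summed level of the list ran from 34.6 to 52.6 at 7 days and from 35.1 to 93.6 at 28 days in sternal fat. In subcutaneous fat it ran from 35.1 to 97.8 and then from 35.1 to 50.5. CKM, muscle creatine kinase, was above 4 in 1 sternal and 3 subcutaneous arrays at 7 days, and in 3 and 2 at 28 days. Leaving those arrays out leaves 1 subcutaneous array at 7 days, and only I and M of the sternal arrays at 28 days. The TCF21 change was then -0.20 in sternal and 0.15 in subcutaneous fat.

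An exact two-sided permutation test of the arrays of each depot, which can go no lower than 0.00794 with 5 against 5, gave p = 0.0317 for epicardial, 0.0159 for omental and 0.0159 for perirenal fat. Adjusted over the 5 depots these exact p-values were 0.0529, 0.0397 and 0.0397. The exact p was 0.325 for sternal fat and 0.333 for subcutaneous fat. Of all pairs of a 28-day and a 7-day array, TCF21 was higher at 28 days in 22 of 25 epicardial, 24 of 25 omental and 24 of 25 perirenal pairs, and in 4 of 25 sternal and 15 of 20 subcutaneous pairs.

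**Figure D3:**
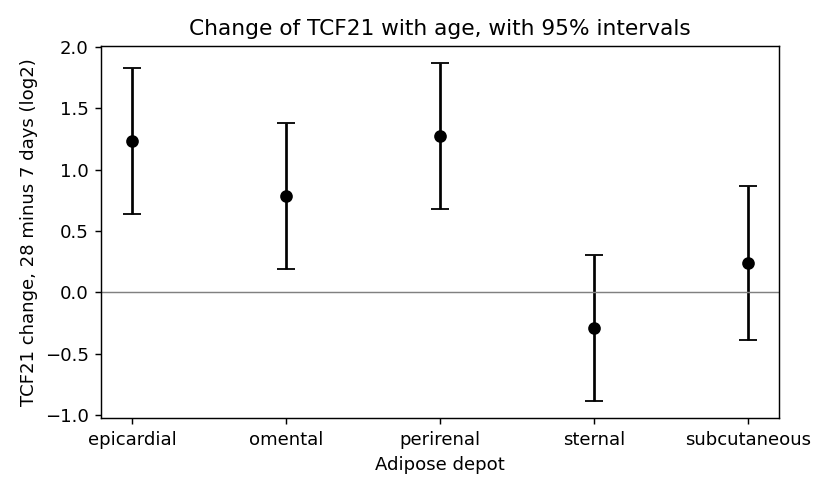
Change of TCF21 from 7 to 28 days in each depot (log2 units, 28 minus 7 days), as points with 95% intervals from the limma model of all 49 arrays. The intervals of epicardial, omental and perirenal fat lie above 0, while those of sternal and subcutaneous fat include 0. After adjustment over all probe sets the omental change was not called (adjusted p = 0.0666).

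How far the depots differed in their change with age is given as a description, since these differences are built from the depot levels by which the gene was chosen. The change in epicardial fat exceeded that in sternal fat by 1.52 ± 0.42 (SE, interval 0.68 to 2.37), and the change in perirenal fat exceeded it by 1.57 ± 0.42 (SE, interval 0.73 to 2.41). Sternal TCF21 lay near the lowest value of the table at both ages, with means of 3.16 and 2.87, so a fall there could hardly be measured and the size of both differences has that limit. Without the sternal and subcutaneous arrays with skeletal muscle signal (CKM above 4) the differences were 1.43 and 1.48.

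Epicardial and perirenal fat differed in their change by -0.04 ± 0.42 (SE, interval -0.89 to 0.80), and that interval allows differences of nearly 1 log2 unit either way. The change in epicardial fat differed from that in omental fat by 0.45 (interval -0.39 to 1.29) and from that in subcutaneous fat by 0.99 (interval 0.13 to 1.86). Omental minus perirenal fat gave -0.49 (interval -1.33 to 0.35). Subcutaneous TCF21 was dim at both ages, as in sternal fat, so the same limit holds for it.

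Of the E protein partners of TCF21, TCF12 and TCF4 were bright in every depot and TCF3 was dim. Of a list of 16 partners and related helix-loop-helix factors, TCF21 left out, 10 were measured. TCF12 at 7 days had a mean of 8.69 ± 0.28 in epicardial, 9.61 ± 0.46 in omental, 8.63 ± 0.25 in perirenal and 8.96 ± 0.45 in sternal fat (SD, n = 5 each), and 9.63 ± 0.24 (SD, n = 4) in subcutaneous fat. TCF4 at 7 days lay between 7.63 and 8.16 by mean over the depots. TCF3, the founding E protein gene, lay between 2.71 and 3.36 on every array. Against the mean of the other 4 depots, 0 of the 10 were called in epicardial fat at 7 days by limma. Of all probe sets 4.07% were called, and 4 of the 10 had an unadjusted p under 0.05. At 28 days, when 3.24% of all probe sets were called, TCF4 was higher there by 0.56 ± 0.13 (SE, limma adjusted p = 0.0189). Its adjusted p was 0.0586 after quantile normalisation, and without the arrays with CKM above 4, 0 of the 10 were called higher. By mean TCF4 was 8.62 in epicardial and 8.64 in perirenal fat, so it was not above every depot. TCF12 was lower by 0.36 log2 units and TWIST1, a mesenchymal factor, lower by 0.50, with limma adjusted p-values of 0.0286 and 0.0326. TCF12 had a mean of 9.24 in epicardial and 9.23 in sternal fat. With the replicate number as a block, TCF12 and TWIST1 lost their calls.

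In perirenal fat TCF12 and TCF4 rose with age alongside TCF21. At 7 days perirenal TCF12 was 8.29 in A, 8.92 in B, 8.68 in C, 8.77 in D and 8.47 in G, and at 28 days every array lay between 9.32 and 9.64. Perirenal TCF4 ran from 7.33 to 8.0 at 7 days and from 8.32 to 9.04 at 28 days. For both genes the perirenal groups did not overlap. The changes were 0.88 ± 0.17 for TCF12 and 0.93 ± 0.18 for TCF4 (SE, n = 5 and 5), with limma adjusted p-values of 0.000377 and 0.000287. HAND1, with a mean below 4 over all arrays, made the third of 3 partner-list genes called higher in this depot, at 0.46 ± 0.12 (SE). None was called lower. Of all probe sets 6.23% were called higher there and 3.09% lower.

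In epicardial fat 1 of the 10 was called with age, ID2, an inhibitor that takes up E proteins, which rose by 0.61 ± 0.19 (SE, limma adjusted p = 0.0453), while 4.21% of all probe sets were called higher. Its adjusted p was 0.169 after quantile normalisation. TCF12 changed there by 0.54 ± 0.17 at an adjusted p of 0.0504 and TCF4 by 0.45 ± 0.18 at 0.145. In omental fat the inhibitors ID2, ID3 and ID4 rose, by 0.74, 0.74 and 1.02 log2 units, where 13.5% of all probe sets were called higher. After quantile normalisation ID3 kept its call, while ID2 and ID4 had adjusted p-values of 0.259 and 0.114. ID2 and ID3 had means below 4 over all arrays. In sternal fat 0 of the 10 were called by limma, with 1 at an unadjusted p under 0.05. Of all probe sets 6.37% were called there. In subcutaneous fat TWIST1 rose by 1.03 ± 0.15 (SE) and TCF15 by 0.48 ± 0.16, where 7.68% of all probe sets were called higher. Skeletal muscle genes fell in that comparison, with a list median of -1.75. Without the arrays with CKM above 4, which leaves 1 subcutaneous array at 7 days, the TWIST1 change was 1.09, and no call was read for either gene. Genes of the lists named for a change with age were chosen after their values were seen.

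**Figure D4:**
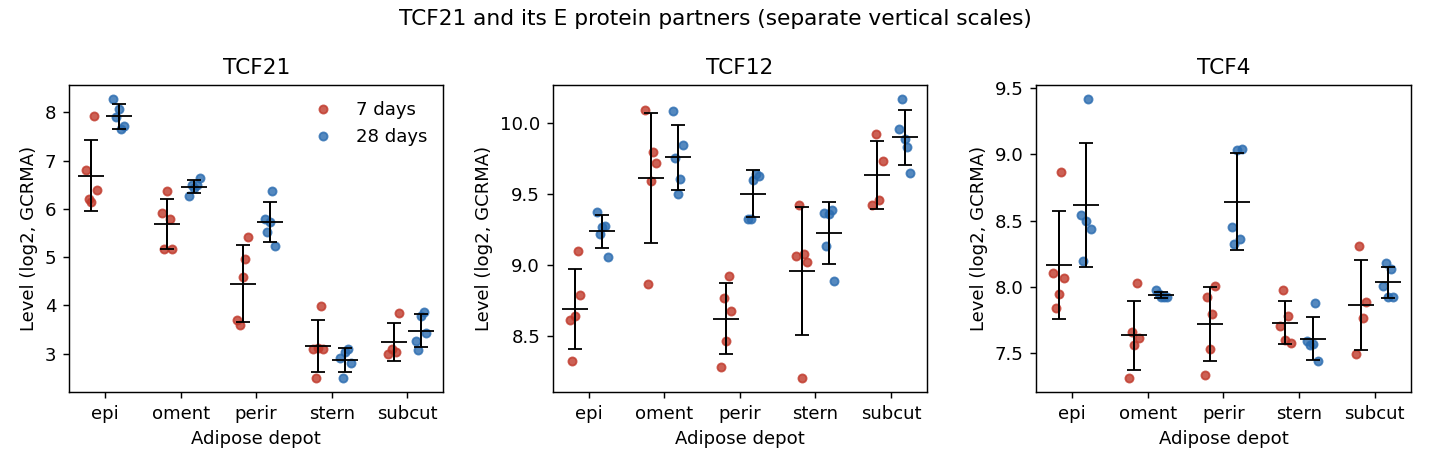
Levels (log2, GCRMA) of TCF21 and of the E proteins TCF12 and TCF4 in every array by depot, in red for 7 days and blue for 28 days, with means and SD. The vertical scales differ between panels. In perirenal fat all 28-day arrays of TCF12 and TCF4 lie above all 7-day arrays.

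Of 23 genes of the epicardium and mesothelium, the sheet that lines body cavities and inner organs, 12 were measured. WT1, a transcription factor of both, was the only one called in epicardial fat at 28 days, higher by 1.60 ± 0.27 (SE, limma adjusted p = 0.00116). Of all probe sets 2.74% were called higher in that comparison. At 7 days its difference was 0.12 ± 0.38 (SE, limma adjusted p = 0.917). Epicardial WT1 was 3.82 in A, 4.60 in C, 2.73 in D, 3.68 in E and 3.49 in G at 7 days, and 5.38 in I, 5.03 in J, 5.47 in L, 5.57 in N and 5.81 in O at 28 days. The ages did not overlap, and WT1 rose with age in that depot by 1.79 ± 0.42 (SE, n = 5 and 5, limma adjusted p = 0.00485). In omental fat WT1 was higher still by mean, 5.08 ± 1.44 and 6.05 ± 1.08 (SD, n = 5 each), with arrays from 3.49 to 7.65.

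Of 14 measured factors of heart and body wall position (24 listed), GPC4 was called higher in epicardial fat at 7 days, by 0.31 ± 0.06 (SE). FOXC2 and GATA6 were called higher there at 28 days, by 0.40 ± 0.09 and 0.37 ± 0.09, and none was called lower at either age. Of all probe sets in these comparisons, 3.35% were called higher and 0.72% lower at 7 days. At 28 days 2.74% were called higher and 0.506% lower. GPC4, FOXC2 and GATA6 had means below 4 over all arrays. FOXC2 and GATA6 lost their calls without the arrays with CKM above 4 (limma adjusted p = 0.0629 and 0.0962). Their calls were also lost with the replicate number as a block (limma adjusted p = 0.112 and 0.0808). Of 13 measured smooth muscle genes (15 listed), SMTN, which encodes smoothelin, was higher by 1.83 ± 0.31 at 7 days and 1.16 ± 0.22 at 28 days (SE). SRF, the serum response factor of muscle gene promoters, was higher by 0.69 ± 0.14 and 0.42 ± 0.10, the latter with an adjusted p of 0.158 after quantile normalisation. MYLK, the kinase of smooth muscle myosin, was lower at 7 days by 1.41 ± 0.24 and was not called at 28 days. ACTA2, smooth muscle actin, differed by 0.14 ± 0.11 at 28 days (limma adjusted p = 0.698). SRF lost its 28-day call with the replicate number as a block. It also acts in heart muscle, whose signal was high in all epicardial arrays except I. Epicardial SMTN at 7 days was 5.39 in A, 5.29 in C, 7.01 in D, 5.81 in E and 6.94 in G. At 28 days it was 5.99 in I, 6.72 in J, 6.75 in L, 6.22 in N and 7.51 in O. TNNI3 was lowest in A and C at 7 days and in I and N at 28 days, as SMTN was. The part of heart muscle in these differences was not tested.

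Of 18 measured genes of mesenchymal progenitors and fibroblasts (20 listed), DLK1, a marker of preadipocytes, was higher in epicardial fat at 28 days by 1.40 ± 0.24 (SE, limma adjusted p = 0.00101). FBN1, which encodes the matrix protein fibrillin, and VIM, the mesenchymal filament vimentin, were lower there by 0.46 and 0.32 log2 units. Both lost their calls with the replicate number as a block. Of all probe sets 2.74% were called higher and 0.506% lower at that age. At 7 days COL3A1, a fibrillar collagen, and ZNF423, a preadipocyte factor, were lower by 0.69 and 0.84, beside 0.72% of all probe sets called lower. With age 4 of the 18 rose in epicardial fat (COL3A1, DLK1, VIM and ZNF423) and none fell, beside 4.21% called higher and 1.63% lower of all probe sets. In sternal fat, where TCF21 stayed dim, 11 of the 18 rose, beside 2.47% of all probe sets. Among them were COL1A1 by 3.85 ± 0.44 and PDGFRA, a receptor of progenitors, by 0.83 ± 0.14 (SE). Skeletal muscle genes rose in the same comparison, with a list median of 1.38. Without the arrays with CKM above 4, only I and M remained of the 28-day sternal arrays. The skeletal muscle median was then -0.0016, and the median change of the 18 was 0.89, beside -0.0068 over all probe sets. With all arrays, the median change of the 18 was 0.35 in epicardial and 0.93 in sternal fat, beside 0.02 and -0.0039 over all probe sets. Of 12 measured genes of retinoic acid and PDGF signalling (18 listed), 0 were called in epicardial fat at either age by limma. At each age 1 had an unadjusted p under 0.05, while 4.07% of all probe sets were called at 7 days and 3.24% at 28 days. DHRS3, which reduces retinal, rose with age in all 5 depots, by 0.48 to 0.76 log2 units. Its mean over all arrays was below 4. The call was lost in omental fat after quantile normalisation (adjusted p = 0.607), and in sternal fat without the arrays with CKM above 4 (adjusted p = 0.260). Leaving those arrays out leaves 1 subcutaneous array at 7 days, and the DHRS3 change in subcutaneous fat was then 0.79.

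Kidney, adrenal, endothelial and macrophage or lymphocyte lists had no member with a group mean of at least 4, so such cells could not be assessed from these lists. Of the adipocyte list, 6 of 10 genes were measured. Only UCP1, the uncoupling protein of brown fat, had a group mean of at least 4. In perirenal fat, where TCF21 rose, UCP1 fell by 3.37 ± 0.36 (SE, n = 5 and 5, limma adjusted p = 1.14e-08). The fall was not particular to that depot. UCP1 means went from 4.46 to 2.90 in sternal fat, where TCF21 stayed dim. They went from 4.04 to 2.90 in epicardial and from 3.65 to 2.91 in omental fat, and were 2.72 and 2.91 in subcutaneous fat. At 7 days perirenal UCP1 was 8.22 in A, 5.62 in B, 6.32 in C, 5.51 in D and 5.77 in G, and at 28 days it lay between 2.87 and 3.0 on every array. Array A, with the highest UCP1 level, had the second lowest perirenal TCF21 level at 3.70, and D, with the lowest UCP1 level, had the lowest TCF21 level at 3.59, so the 7-day arrays did not run one way. UCP1 was named after its values were known.

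Genes with a pattern like that of TCF21 were ranked by Pearson's r among 2084 probe sets with 1 symbol and a group mean of at least 4. The points share libraries, depots and ages, so r is a description with no test. Over 49 arrays the highest were MEIS2 at 0.854, WT1 at 0.753, SEMA6D at 0.704 and PRDM11 at 0.700. STOX2 followed at 0.687, MTMR4 at 0.680, CAPRIN2 at 0.673 and ANKRD17 at 0.671. MEIS2 is a homeobox factor that pairs with HOX proteins, and SEMA6D is a semaphorin with a part in heart development. TNNI3 came at rank 56 with r = 0.578, and none of the genes named for likeness belongs to the cardiac muscle list.

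MEIS2 differed from TCF21 in 2 respects. Its epicardial and omental means were near each other, 8.33 ± 0.36 and 8.13 ± 0.42 at 7 days and 8.40 ± 0.09 and 8.56 ± 0.34 at 28 days (SD, n = 5 each). Its sternal and subcutaneous means were well above the dim range, between 6.27 and 7.20. The lowest r over 49 arrays belonged to HOXC6 at -0.572, FERMT2 at -0.514, ALDOA at -0.456 and MYOZ1 at -0.439. HOXC6 was bright in all depots but epicardial fat, where its means were 2.67 ± 0.33 and 2.50 ± 0.03 (SD, n = 5 each), and MYOZ1 is a skeletal muscle gene.

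Leaving out epicardial fat changed the genes at the top. Over the 39 arrays of the other depots the highest r were MEIS1 at 0.842, HOXB6 at 0.830, MEIS2 at 0.828, WT1 at 0.806, HOXB7 at 0.750 and GPM6A at 0.711. MEIS1 is a homeobox factor close to MEIS2, and HOXB6 and HOXB7 are HOX genes of the trunk. HOXB6 had means of 5.75 ± 0.55 and 6.67 ± 0.28 in omental and 5.05 ± 0.26 and 6.67 ± 0.46 in perirenal fat (SD, n = 5 each). In epicardial fat, where TCF21 was highest, HOXB6 had means of 2.73 ± 0.32 and 2.68 ± 0.28 (SD, n = 5 each). Over all 49 arrays r between HOXB6 and TCF21 was -0.047. MEIS2 and WT1 were named by both rankings.

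**Figure D5:**
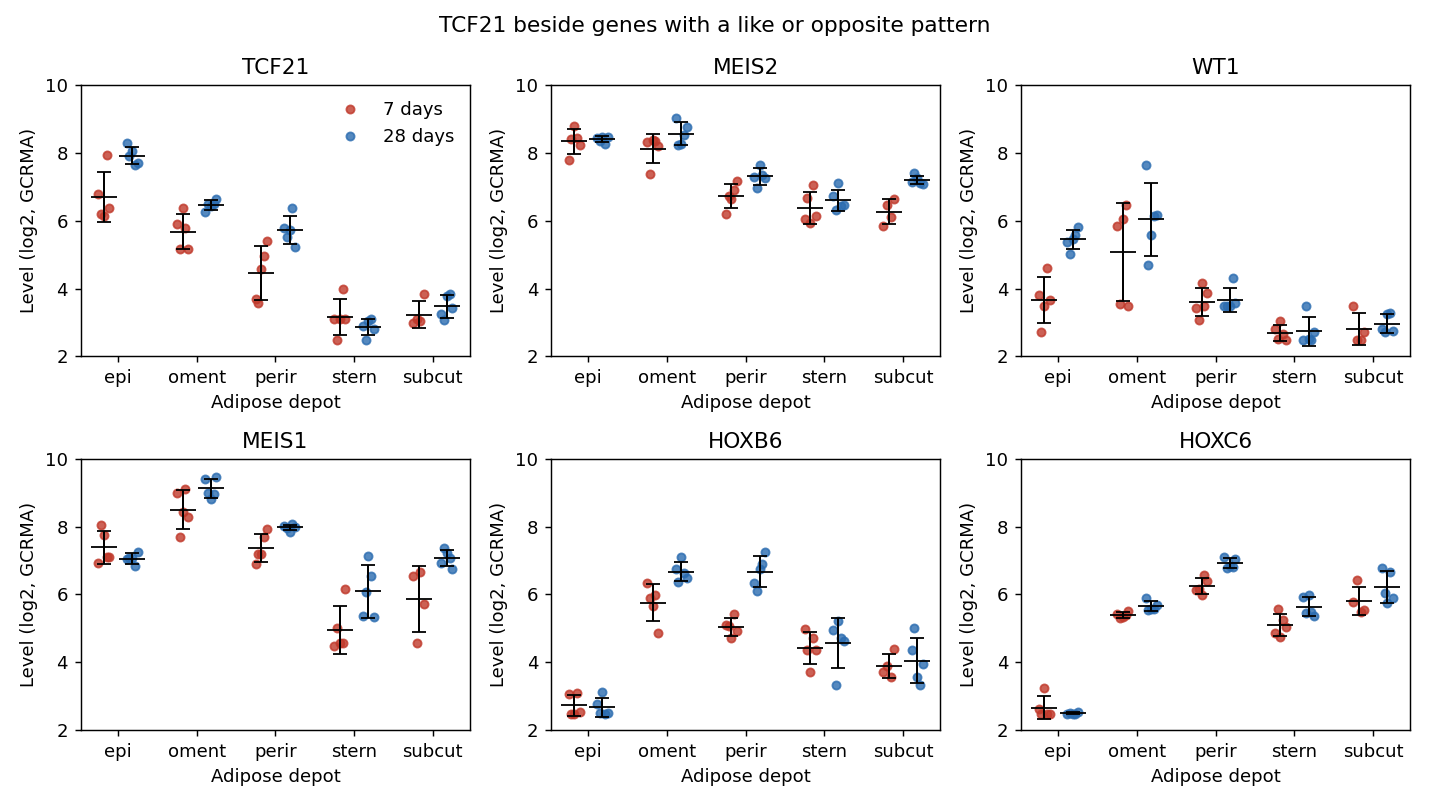
Levels (log2, GCRMA) of TCF21 and of genes with a like or opposite pattern in every array, by depot (epi, oment, perir, stern and subcut for epicardial, omental, perirenal, sternal and subcutaneous fat), in red for 7 days and blue for 28 days, with means and SD. HOXB6 and HOXC6 are dim in epicardial fat, where TCF21 is highest, and MEIS2 is high in epicardial and omental fat.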

How the data were processed

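RNA of 49 samples was measured on Affymetrix Human U133 Plus 2 arrays, made for another species. The authors deposited log2 values from GCRMA (affy package), with background correction, normalisation and 1 summary per probe set. Their versions are not given in the sources consulted. In the table of 10273 probe sets, the platform annotation, which may be outdated, gave 1 symbol to 9780, several to 6 and none to 487. Groups came from tissue and age in the labels, not from a common description that names another age range. Their titles all hold an unexplained letter C.

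Changes with age were tested with limma 3.58.1 in R 4.3.3, with 1 mean per group over 10 groups, empirical Bayes moderation and Benjamini-Hochberg adjustment over all probe sets within each comparison. Members of gene lists were compared in 1 model per age, epicardial fat against the mean of the other 4 depots. A probe set was called at an adjusted p of at most 0.05. The procedure was tested on simulated data. Exact permutation tests and correlations used scipy 1.17.1 and numpy 2.4.6 in Python 3.11.15.

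The gene and the lists were chosen with earlier results of these data known. Named genes were TCF21 and TNNI3, the genes with the 8 highest and 4 lowest correlations with TCF21 over 49 arrays, the 6 highest over 39 arrays without epicardial fat and the 5 highest for deviations from group means, list members called in epicardial fat at both ages, and up to 4 further members with the largest difference at 28 days. Others are said to be chosen afterwards. Alternatives were quantile normalisation, a shift to 1 median, a mean of at least 4, array weights, a trend with robust estimation, fits of only the compared groups, muscle-rich arrays left out, a replicate block, single arrays left out and the permutation test. For arrays, their number limits the precision. Genome position and sequence were not used here.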

Additional observations from a re-analysis of the deposited data

Results flagged for a closer look

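In groups of 4 or 5 arrays, 1 array stood apart from the others in 6 cases among TCF21, TNNI3, WT1 and MEIS2. Cases in other genes are not counted here. Chance gives this in about 1 group in 20, and the number of cases was not set against that rate. TCF21 was highest in the 7-day subcutaneous array E, at 3.83. TNNI3 was lowest in the 7-day omental array E, at 2.51, by a gap of only 0.0069 log2 units. It was highest in the 7-day perirenal array G, at 2.69, and both values are dim. WT1 was highest in the 28-day perirenal array N, at 4.31, which also had the highest perirenal TCF21 level, and in the 28-day sternal array J, at 3.49. MEIS2 was lowest in the 7-day omental array D, at 7.38.

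The fitted change of TCF21 with age was 1.52 log2 units larger in epicardial than in sternal fat (limma adjusted p = 0.0495) and 1.57 larger in perirenal than in sternal fat (limma adjusted p = 0.0408). The gene was chosen by its depot levels, so these p-values are no independent evidence. They rose above 0.05 without 1 array in 15 of 20 and 12 of 20 cases, and were 0.217 and 0.204 without the arrays with CKM above 4.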

How the results depend on the processing

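Of 160 values under alternatives other than leaving out single arrays, 24 changed direction, side of the threshold or size, as did 36 of 294 values without 1 array. The cause of the changes was not tested. Differences between depots in the change are built from the levels that chose the gene, so their calls below (adjusted p = 0.0495 and 0.0408 for epicardial and perirenal minus sternal, 0.0285 for the F test) are no findings. Fitting only the groups compared left epicardial and perirenal changes at 1.23 (adjusted p = 0.113) and 1.27 (0.0799), and epicardial and perirenal minus sternal at 1.52 (0.120) and 1.57 (0.105). These last 2 differences also lost the call under quantile normalisation (1.46 and 1.50; adjusted p = 0.0788 and 0.0726), array weights (1.54 and 1.53; 0.0723 and 0.0539) and without arrays with CKM above 4 (1.43 and 1.48; 0.217 and 0.204), where the F test gave 2.74 (0.234) and 1 array of 7-day subcutaneous fat was left. Epicardial minus sternal lost it with arrays shifted to 1 median (1.30; 0.0533) and, in an alternative chosen after seeing the data, without epicardial arrays I and N (1.50; 0.0979). Array weights turned epicardial minus perirenal to 0.0059. With probe sets limited to a mean of 4 or more, the omental change of 0.78 (adjusted p = 0.0317) and omental minus sternal at 1.08 (0.0426) were called. In the exact permutation test, adjusted over 5 depots, the epicardial change of 1.23 gave 0.0529 and the omental change of 0.78 gave 0.0397. Gene list calls at 7 days, 6 in all, became 10 under quantile normalisation and 10 with a mean of 4 or more. The omental 28-day level became 6.30 under quantile normalisation.

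Without 1 array, the change ranged from 1.09 to 1.54 in epicardial, 1.06 to 1.51 in perirenal, 0.65 to 0.96 in omental, -0.46 to -0.09 in sternal and 0.14 to 0.44 in subcutaneous fat, and the call changed for omental fat without 7-day array G only. Epicardial minus sternal ranged from 1.32 to 1.83, with the call lost in 15 of 20 cases, and perirenal minus sternal from 1.35 to 1.81, lost in 12 of 20. Epicardial minus perirenal ran from -0.28 to 0.27. The F test ran from 4.20 to 7.60 and was lost without 7-day sternal array B (adjusted p = 0.0626) or 28-day sternal array J (0.0518).

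With the replicate number as a replicate block, no change with age gained or lost its call (epicardial 1.23, perirenal 1.28). Omental minus sternal became 1.18 (adjusted p = 0.0407) and perirenal minus subcutaneous 1.51 (0.0499), both called, and list calls at 28 days went from 11 to 4, which were DLK1, SMTN, TCF4 and WT1. TCF12, TWIST1, FOXC2, GATA6, SRF, FBN1 and VIM kept their direction at adjusted p-values of 0.0689 to 0.139. Same-numbered arrays had deviations with a median r of 0.046 at 7 days and 0.057 at 28 days, over 0.1 in 6 of 33 and 12 of 39 pairs. Different-numbered arrays had medians of -0.011 and -0.009. The labels do not define the numbers, so the main fits did not pair the samples. The paper describes the depots as sampled from each animal, and a low r does not settle whether same-numbered arrays share an animal.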

Other observations

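Within groups, the genes that followed TCF21 were not those that shared its depot pattern. Over deviations of the 49 arrays from their group means, the highest r belonged to PLCB1 at 0.654, REX1BD at 0.613, SUMO4 at 0.593, VIM at 0.575 and SEC11A at 0.566. PLCB1 encodes a phospholipase C, and VIM the mesenchymal filament vimentin. Their r over the 49 levels was 0.307, 0.318, 0.081, -0.041 and 0.357. MEIS2 and WT1, with the highest r over levels, had 0.367 and 0.398 for deviations. In epicardial fat at 7 days, PLCB1 ran from 3.84 to 5.34 and VIM from 7.02 to 8.02. These r share libraries and 10 group means and are given with no test.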
